A study of Homo sapiens with 12 samples.

Results

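The neuronal pentraxins NPTX1 and NPTX2, their membrane-bound relative NPTXR, the cerebellins CBLN1, CBLN2, CBLN3 and CBLN4, and the delta glutamate receptor GRID1 were followed in Daoy cells, an established human medulloblastoma (MB) line, after culture in medium taken from astrocytes. These 8 genes are organisers of synapses known from the cerebellum and other brain regions. The arrays held probes for 27708 genes, where an accession without a gene symbol counted as a gene of its own. All probes with a RefSeq accession of 1 of the 8 genes were used, which gave 10 of 34127 probes. A probe was kept if all arrays of 1 or more groups had it well above background, and each of the 8 genes passed this filter. The set was chosen by family, but was selected on results of the first-passage comparison, in which NPTX1 and CBLN3 were among the falls. Member values that rest on first-passage arrays are therefore given as a description with no p. Nothing is read from the number of members past a threshold there, and only the third-passage comparison can test the members. For NPTX1, CBLN4 and GRID1 it is no test, because of the groups through which they passed the filter.

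Astrocyte conditioned medium (ACM) came from hippocampal astrocytes of Sprague Dawley rat pups aged 1 to 2 days, grown in DMEM with 10% fetal bovine serum. Daoy cells were kept in ACM, or in DMEM with the same share of serum as the control, through 1 passage (P1) or through 3 (P3), each lasting 48 h, and were reseeded in the same medium at each passage. Each of the 4 groups, P1 ACM, P1 DMEM, P3 ACM and P3 DMEM, held 3 single-colour Agilent arrays, 12 in all. The question was whether ACM moves these genes in the MB cells and whether a difference at P1 is present at P3. The ACM was from rat and from hippocampus rather than cerebellum, the MB cells were of 1 line, and the labels, which call the experiments independent, do not say what a replicate number stands for, so the spread below may be in part technical. In such bulk RNA, fewer cells that express a gene and less RNA in each cell cannot be told apart.

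Neuronal pentraxins are secreted proteins that gather AMPA-type glutamate receptors at excitatory synapses, and NPTXR anchors such complexes at the membrane. Cerebellins are secreted relatives of complement C1q that bridge receptors on the presynaptic side to delta receptors on the postsynaptic side. In the cerebellum, granule neurons release CBLN1 onto Purkinje cells, and the granule neuron lineage is also a source of MB.

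The table of RefSeq promoters used here (build GRCh38.p14) matched 3 of the 8 genes, NPTX2, CBLN2 and CBLN3, and the 120 bases before each start site are shown as the regulatory DNA of CBLN3, 1 of the genes the P1 comparison turns on, and of NPTX2 and CBLN2, whose media overlapped at both passages. NPTX2 lies at chr7:98617165-98617284 on the + strand, CBLN2 at chr18:72544343-72544462 on the - strand and CBLN3 at chr14:24429669-24429788 on the - strand. Capitals mark CG, which reads the same on both strands.
NPTX2: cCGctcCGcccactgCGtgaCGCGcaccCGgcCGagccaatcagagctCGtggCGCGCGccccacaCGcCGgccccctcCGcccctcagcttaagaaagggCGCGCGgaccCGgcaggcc
CBLN2: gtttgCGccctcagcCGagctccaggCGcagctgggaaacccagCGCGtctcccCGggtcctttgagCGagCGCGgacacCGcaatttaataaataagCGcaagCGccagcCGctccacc
CBLN3: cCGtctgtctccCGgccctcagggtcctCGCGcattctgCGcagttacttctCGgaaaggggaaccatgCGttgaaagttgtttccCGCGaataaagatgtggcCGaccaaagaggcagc
In the whole 250 bases before the start site, NPTX2 held 34 CG, more than 93.2% of 35116 RefSeq promoters. CBLN2 and CBLN3 held 25 each, more than 78.4% of them, and the median promoter held 11. The G and C content of the 250 bases was 75.6% for NPTX2, 67.2% for CBLN2 and 68.4% for CBLN3, against a median of 58%.

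A level below is log2 of the background-corrected spot intensity minus the 75th percentile of the same array, so that 0 stands for that percentile. Levels of different probes are not compared. A gene is called where ACM and DMEM differed by more than 2-fold and limma gave an unadjusted p of at most 0.05, the thresholds of the study, and SE is the standard error of the fit.

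Arrays with the same scan date in the scanner output were taken to lie on 1 slide, so the slides named here are inferred. This gave 3 slides of 4 arrays, and no ACM array shared its slide with a DMEM array of its own passage. All of P1 ACM was on slide 1 together with replicate 1 of P3 ACM. The other P3 ACM arrays were on slide 2 beside replicates 1 and 2 of P1 DMEM, whose replicate 3 was on slide 3 with all of P3 DMEM. On slide 2, 74.3% to 80.4% of probes passed as well above background and, on the others, 88.1% to 94.6% did, and no spot was saturated (0). A fit with slide as a term rests on P3 ACM and P1 DMEM, the groups split between slides, and no value of ACM against DMEM within a slide and a passage can be given. The sample labels also conflict. In the table of log2 values that the authors deposited beside the scanner output, 0 of 12 columns had the ranking of the array that carries its label (Spearman 0.953 to 0.992), while each column matched an array of another label at 0.999986 or more. The matched array was of the same group for 2 of 12 columns and of the same medium for 4 of 12. The conflict therefore reaches the medium and not only the replicate number. Labels of the scanner output are used here, and values under the labels of the table are given beside them. Of the 8 markers of the granule neuron lineage, 5 were kept and 3 were well above background on all 12 arrays, while ATOH1, NEUROD1 and GABRA6 were not kept. Of the 8 neuronal markers, 5 were well above background on all 12 arrays. Astrocyte markers reached this on all 12 arrays for 4 of 7 genes and Purkinje cell markers for 4 of 4.

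**Figure D1:**
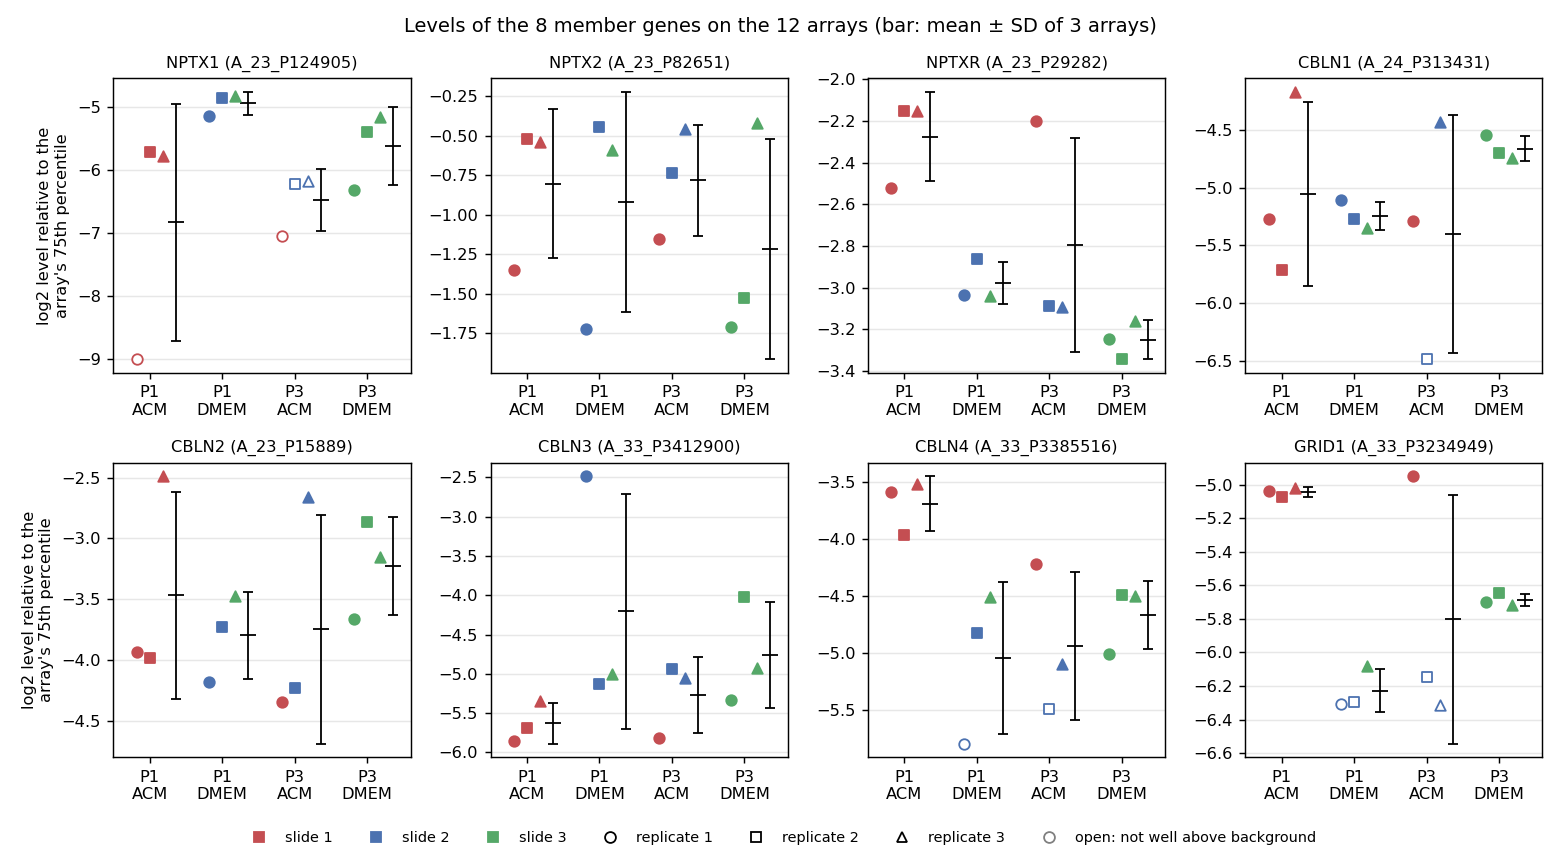
Level of each member gene on the 12 arrays, as log2 intensity minus that of the 75th percentile on the array, with a separate axis for each gene, colour for slide, shape for replicate, open symbols where the probe was not well above background, and bars for mean ± SD of 3 arrays. NPTX1 has 1 low array in P1 ACM at -9.00, CBLN3 has 1 high array in P1 DMEM at -2.49, and the slide 1 arrays of NPTXR, CBLN4 and GRID1 lie above all others.

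NPTX1, a secreted pentraxin, was measured by probe A_23_P124905 near the lower limit of the arrays. In P1 ACM its levels were -9.00, -5.72 and -5.77 in replicates 1, 2 and 3, and in P1 DMEM they were -5.15, -4.85 and -4.81. All P1 ACM arrays were below all P1 DMEM arrays, with means of -6.83 ± 1.88 and -4.94 ± 0.18 (SD, n = 3) and a difference of -1.89 (SE 0.73). Replicate 1 of P1 ACM was far below the rest, with an intensity of 6.14 and a scanner software error of 6.12, so that its value was not distinguishable from no signal. The other 11 intensities ran from 19.8 to 74.5. Without that array the P1 difference was -0.81, and the probe was well above background on 2 of the 3 P1 ACM arrays and on 3 of 3 in P1 DMEM.

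At P3 the levels of NPTX1 were -7.05, -6.23 and -6.17 in ACM and -6.32, -5.39 and -5.15 in DMEM. The groups overlapped, since DMEM replicate 1 lay below ACM replicates 2 and 3. The difference was -0.86 (SE 0.73, 95% interval -2.47 to 0.75), with an adjusted p of 0.780 in limma and a two-sided exact permutation p of 0.3, where 3 arrays against 3 cannot go below 0.1. The probe was well above background on none (0) of the 3 P3 ACM arrays and on 3 of 3 in P3 DMEM. This call also depended on the slide. P3 ACM replicates 2 and 3 failed it on slide 2 at -6.23 and -6.17, while P3 DMEM replicate 1 passed on slide 3 at -6.32. As a bound on the means NPTX1 was 1.52-fold lower in ACM, but the groups overlapped and the 95% interval included 0. A bound takes each dim array at the lowest signal that was well above background on it, or at its own level where that was higher. It takes no account of the spread between arrays. NPTX1 passed the filter only through P1 DMEM and P3 DMEM, where it had to be high, so its P3 values are no test of it. Under the labels of the authors' table the differences were 1.17 at P1 and 1.85 at P3, the opposite direction at both passages.

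NPTX2, the secreted pentraxin induced by neuronal activity, was read by A_23_P82651 well above background on all 12 arrays, at intensities of 595.2 to 1577. Its levels were -1.35, -0.52 and -0.54 in P1 ACM and -1.72, -0.45 and -0.59 in P1 DMEM. At P3 they were -1.16, -0.73 and -0.46 in ACM and -1.71, -1.53 and -0.42 in DMEM. The media overlapped at both passages, and the arrays of each group spanned a wider range than the difference between media, which was 0.12 (SE 0.42) at P1 and 0.44 (SE 0.42, 95% interval -0.49 to 1.36, limma adjusted p 0.802, exact permutation p 0.4) at P3. Replicate 1 was the lowest array of all 4 groups for NPTX2 and for NPTX1, which held for 1241 of 25275 genes (4.91%). NPTX2 thus varied more between replicate numbers, with means of -1.48, -0.81 and -0.50 for numbers 1, 2 and 3, than between media.

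NPTXR, the transmembrane pentraxin, was well above background on all 12 arrays with probe A_23_P29282. Its levels were -2.52, -2.15 and -2.15 in P1 ACM and -3.03, -2.86 and -3.04 in P1 DMEM. All P1 ACM arrays were higher, by 0.70 on average (SE 0.24). At P3 they were -2.20, -3.09 and -3.09 in ACM and -3.25, -3.34 and -3.16 in DMEM.

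The P3 groups of NPTXR did not overlap either, which held for 1 of the 8 members at P3 and for 9.77% of all genes. The P3 difference was 0.45 (SE 0.24, 95% interval -0.06 to 0.97), with an unadjusted limma p of 0.080, an adjusted p of 0.705 and an exact permutation p of 0.1, the smallest this design allows. P3 ACM replicate 1, the array on slide 1, stood above the other P3 ACM arrays, and without it the difference was 0.16. With slide as a term the differences were -0.22 at P1 and 0.06 at P3, and under the labels of the authors' table -0.0116 and -0.61.

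CBLN1, the cerebellin that granule neurons secrete, was read by A_24_P313431 and was well above background on 11 of 12 arrays, P3 ACM replicate 2 being the exception. Its levels were -5.27, -5.72 and -4.17 in P1 ACM and -5.11, -5.28 and -5.35 in P1 DMEM, with a difference of 0.19 (SE 0.48). At P3 they were -5.29, -6.48 and -4.43 in ACM and -4.54, -4.70 and -4.75 in DMEM. The DMEM arrays of each passage lay close together (SD 0.12 and 0.11), whereas the ACM arrays spread widely (SD 0.80 and 1.03) on both sides of them, with replicate 3 the highest at both passages. The P3 difference was -0.74 (SE 0.48, 95% interval -1.79 to 0.31, limma adjusted p 0.740, exact permutation p 0.4).

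CBLN2, a cerebellin of forebrain neurons, was well above background on all 12 arrays with probe A_23_P15889. Levels were -3.94, -3.98 and -2.49 in P1 ACM and -4.18, -3.73 and -3.48 in P1 DMEM. At P3 they were -4.35, -4.23 and -2.66 in ACM and -3.66, -2.87 and -3.15 in DMEM. As with CBLN1, replicate 3 was the highest ACM array at both passages and the media overlapped, with differences of 0.33 (SE 0.50) at P1 and -0.52 (SE 0.50, 95% interval -1.62 to 0.58, limma adjusted p 0.801, exact permutation p 0.4) at P3. Over the 12 arrays the levels of CBLN1 and CBLN2 had a Pearson r of 0.77 and a Spearman rho of 0.76, a description over arrays that share slides and media. Without P3 ACM replicate 3 both genes were called lower in ACM at P3, at -1.23 for CBLN1 and -1.06 for CBLN2. In that fit 369 of 25275 genes were called lower, against 206 with all arrays. Without P3 ACM replicate 2 the CBLN1 difference was -0.20, and without replicate 1 that of CBLN2 was -0.22.

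CBLN3, a cerebellin that is secreted together with CBLN1, was read by A_33_P3412900 well above background on all 12 arrays. Its levels were -5.86, -5.69 and -5.35 in P1 ACM and -2.49, -5.13 and -5.01 in P1 DMEM. The groups did not overlap, but a single array carried most of the distance, since P1 DMEM replicate 1 had an intensity of 352.2 (software error 36.3) against 40.9 to 109.8 on the other 11. The means were -5.63 ± 0.26 and -4.21 ± 1.49 (SD, n = 3), a difference of -1.42 (SE 0.62), and without that array the difference was -0.56.

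The P3 levels of CBLN3 were -5.82, -4.93 and -5.05 in ACM and -5.33, -4.02 and -4.92 in DMEM, so that the media overlapped. The difference was -0.51 (SE 0.62, 95% interval -1.87 to 0.85), with a limma adjusted p of 0.838 and an exact permutation p of 0.4. CBLN3 was also the only member for which all 4 slide 1 arrays lay below the other 8, which held for 1.9% of genes. Under the labels of the authors' table the differences were 1.58 at P1 and 1.92 at P3, again the opposite direction.

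**Figure D2:**
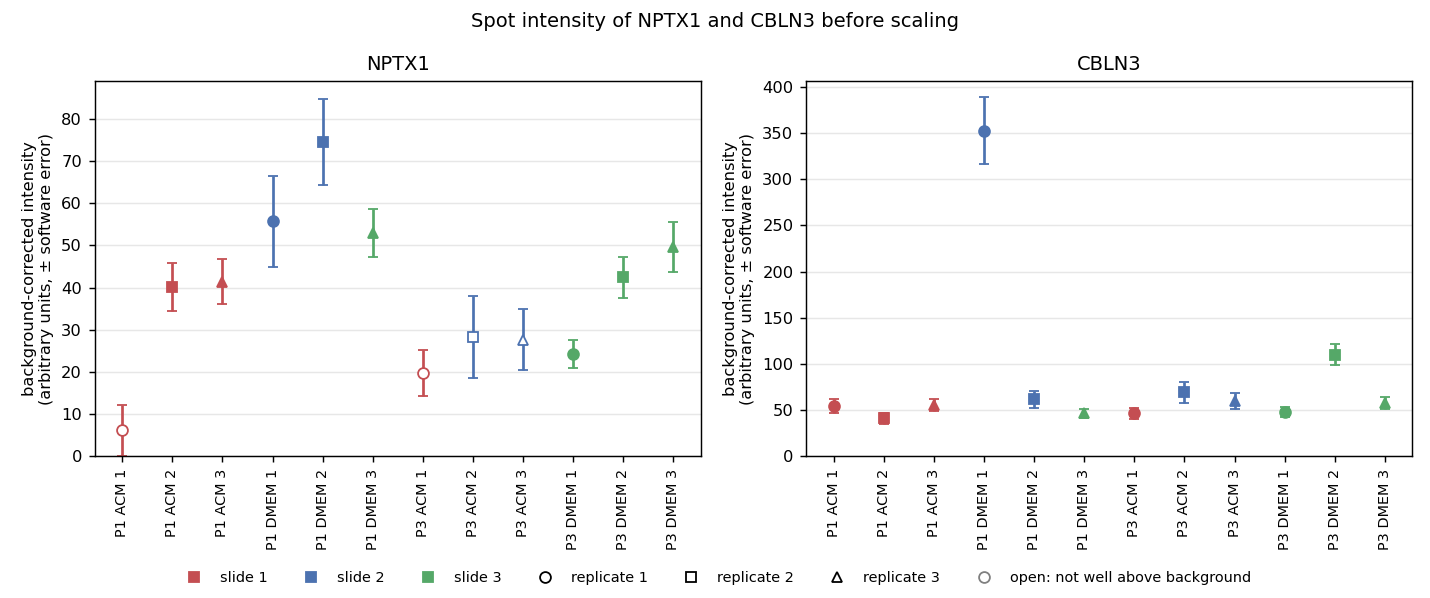
Background-corrected intensity of the NPTX1 and CBLN3 probes on each of the 12 arrays before scaling, in arbitrary units with the error given by the scanner software, coloured by slide. The NPTX1 value of P1 ACM replicate 1 (6.14) is as small as its error (6.12), and the CBLN3 value of P1 DMEM replicate 1 (352.2) is far above the other arrays (40.9 to 109.8).

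CBLN4, a cerebellin that binds the receptor DCC, was well above background on 10 of 12 arrays with probe A_33_P3385516. The levels were -3.59, -3.96 and -3.51 in P1 ACM against -5.80, -4.82 and -4.51 in P1 DMEM. All P1 ACM arrays were higher, and the difference was 1.36 (SE 0.38). The lowest value, P1 DMEM replicate 1, was not well above background, and without it the difference was 0.98.

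At P3, the CBLN4 levels were -4.22, -5.49 and -5.10 in ACM and -5.01, -4.49 and -4.50 in DMEM, so that the ACM arrays lay on both sides of the DMEM arrays. The difference was -0.27 (SE 0.38, 95% interval -1.10 to 0.56, limma adjusted p 0.858, exact permutation p 0.6). CBLN4 passed the filter only through P1 ACM and P3 DMEM, where it had to be high, so its P3 values are no test of it. Between the ACM groups, CBLN4 was 1.25 lower at P3 than at P1 (difference -1.25, SE 0.38), and the highest P3 ACM array was replicate 1, which shares slide 1 with the P1 ACM arrays. With slide as a term the P1 difference was 0.55, and under the labels of the authors' table it was -0.21.

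GRID1 encodes a delta receptor, the postsynaptic partner of cerebellins, and had 3 probes. The brightest, A_33_P3234949, gave levels of -5.04, -5.08 and -5.02 in P1 ACM and -6.30, -6.29 and -6.08 in P1 DMEM. The P1 ACM arrays lay within a narrow band (SD 0.03) above all P1 DMEM arrays, with a difference of 1.18 (SE 0.29). At P3 the levels were -4.95, -6.14 and -6.31 in ACM and -5.70, -5.65 and -5.72 in DMEM. P3 ACM replicate 1, on slide 1, lay among the P1 ACM arrays, and the other P3 ACM arrays were lower than all P3 DMEM arrays.

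The P3 difference of GRID1 was -0.11 (SE 0.29, 95% interval -0.76 to 0.53, limma adjusted p 0.928, exact permutation p 1). The probe was well above background on 3 of 3 arrays in P1 ACM and P3 DMEM and on 1 of 3 in the other groups, so the low levels are close to the limit of detection. It thus passed the filter only through P1 ACM and P3 DMEM, where it had to be high, and its P3 values are no test of it. With slide as a term the P1 difference was -0.0225, after quantile normalization it was 0.28, and under the labels of the authors' table it was -0.0672.

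Of the other GRID1 probes, A_24_P941896 was highest on the 4 slide 1 arrays, as the brightest probe was, and A_23_P32805 was not. Probe A_23_P32805 gave a P1 difference of 1.28 (SE 0.88) and a P3 difference of -0.26 (SE 0.88, limma adjusted p 0.946), with media overlapping at both passages and 8 of 12 arrays well above background. It too passed the filter only through P1 ACM and P3 DMEM. Its highest array was replicate 3 in all 4 groups, which held for 5.03% of genes, and its levels there were -5.08, -5.68, -4.38 and -5.34 in P1 ACM, P1 DMEM, P3 ACM and P3 DMEM. Probe A_24_P941896 was well above background on the 4 arrays of slide 1, at -5.62, -5.35 and -5.17 in P1 ACM and -4.71 in P3 ACM replicate 1, and on none (0) of the other 8, where it lay between -8.12 and -7.01. It passed the filter only through P1 ACM, where it had to be high, and its bound there was at least 1.78-fold higher in ACM. At P3, 1 of the 3 ACM arrays and none (0) of the DMEM arrays measured it (limma adjusted p 0.762), and no fold is given.

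**Figure D3:**
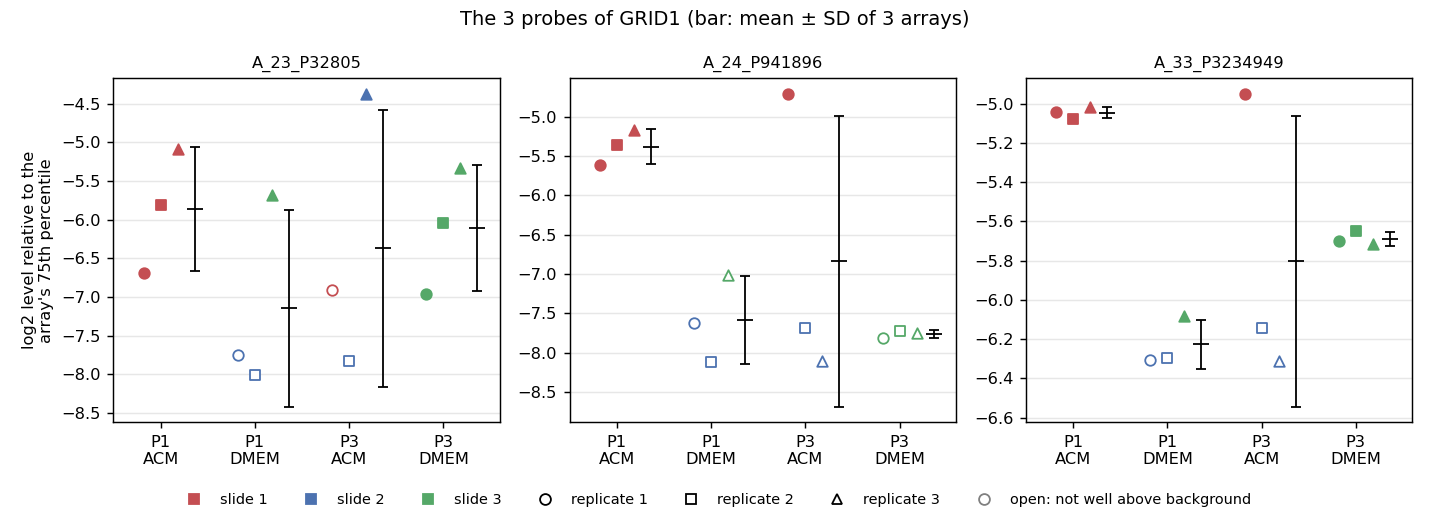
Level of the 3 GRID1 probes on the 12 arrays, as log2 intensity minus that of the 75th percentile on the array, coloured by slide, with shape for replicate, open symbols where not well above background, and bars for mean ± SD of 3 arrays. Only A_23_P32805 is highest in replicate 3 of every group, while the other probes are highest on the 4 slide 1 arrays.

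Counted over the set at P1, 2 of 8 members were called higher in ACM (CBLN4 and GRID1) and 2 lower (NPTX1 and CBLN3), where 13.5% of 25275 genes were called higher and 0.095%, or 24 genes, lower. The counts over all genes depended on the processing, at 909 higher and 231 lower after quantile normalization and 155 higher and 373 lower with slide as a term. Between the ACM groups 1 of 8 members (CBLN4) was called lower at P3 than at P1, where 7.5% of genes were. The P1 arrays of 5 of 8 members, those 4 and NPTXR, did not overlap between media, against 36% of genes. Since the P1 contrast was known when the set was proposed, nothing is read from these counts. At P3, 0 of 8 members were called by limma or by the methods' t-test, where 1.73% of genes were called by limma, and the smallest unadjusted limma p of a member was the 0.080 of NPTXR. In the fit of 12 arrays no gene (0 of 25275) reached an adjusted p of 0.05 in limma at either passage, whereas at P1 limma called 4834 genes at that level with only the 6 arrays compared and 5175 without P3 ACM replicate 1, and the methods' t-test 2110. In the fit of 12 arrays, 24% at P1 and 7.24% at P3 had an unadjusted p of 0.05 or less. The median difference over all genes was 0.15 at P1 and 0.0011 after quantile normalization, and after it the P1 values of the members called were -2.57 for NPTX1, -2.25 for CBLN3, 0.74 for CBLN4 and 0.28 for GRID1.

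All 4 slide 1 arrays lay above the other 8 for NPTXR, CBLN4 and GRID1, 3 of 8 members, which held for 21.7% of genes. These were 3 of the genes with higher levels in P1 ACM, a group that fell on slide 1 as a whole. Medium at P1 and slide therefore cannot be told apart within these arrays. The same holds at P3, where all DMEM arrays were on slide 3 and all ACM arrays on slides 1 and 2. Between the DMEM groups, which differ in passage and in part in slide but not in medium, the arrays of 4 members did not overlap, against 19% of genes. NPTX1 and NPTXR were lower at P3 (by differences of -0.68 and -0.27), and CBLN1 and GRID1 were higher (0.58 and 0.54). The P3 differences between media of these 4 genes were -0.86, 0.45, -0.74 and -0.11.

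**Figure D4:**
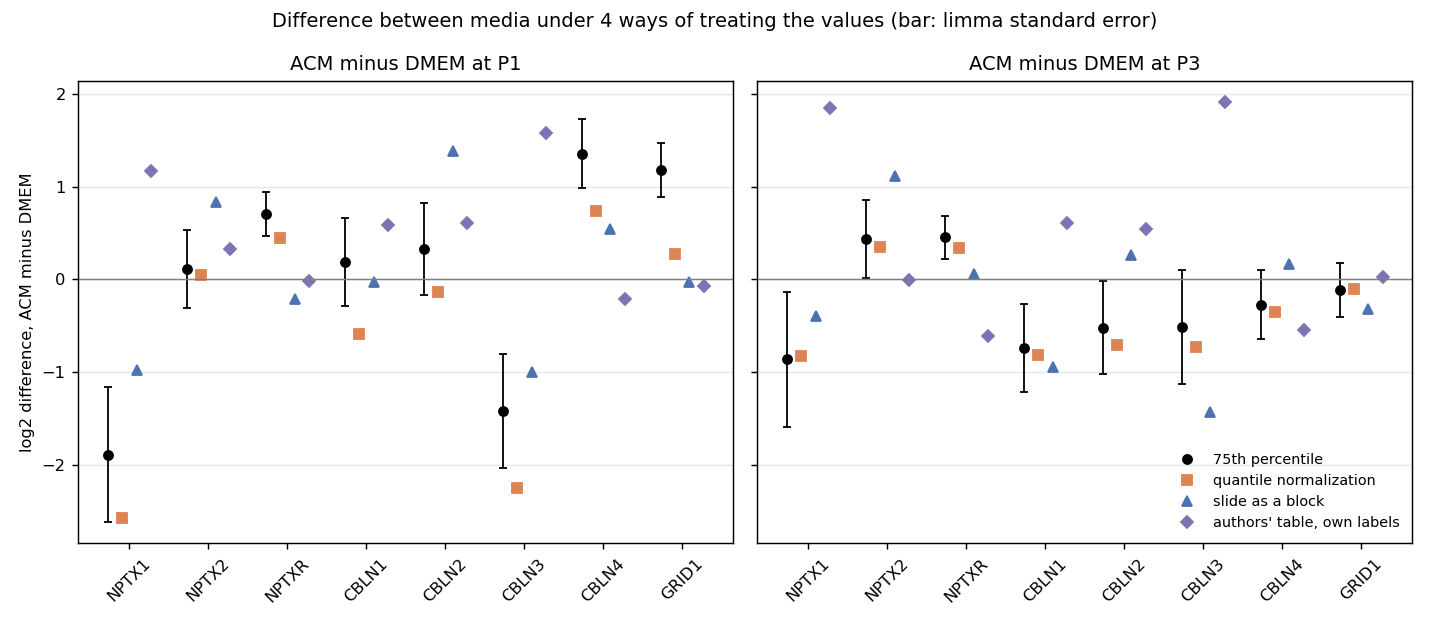
Log2 difference of ACM minus DMEM for each member at P1 and P3 under 4 treatments of the values, with bars for the limma standard error on the 75th percentile scale. NPTX1 and CBLN3 lie below 0 at both passages on the scanner labels and above 0 under the labels of the authors' table, and GRID1 at P1 moves from 1.18 to -0.0225 with slide as a block.

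Among the proteins that neuronal pentraxins bind or resemble (AMPA receptor subunits, the protease ADAM17, complement C1q chains and other pentraxins), 11 of 12 genes were kept. At P1, 2 were called higher in ACM and 0 lower, where 13.5% of all genes were called higher. The median difference was 0.45 against 0.15 over all genes, and it was 0.047 after quantile normalization and -0.24 with slide as a term. GRIA1, an AMPA receptor subunit, was at -3.46, -3.49 and -3.57 in P1 ACM and at -6.72, -5.50 and -6.02 in P1 DMEM, a difference of 2.57 (SE 0.82, limma adjusted p 0.107), with 2 of the 3 P1 DMEM arrays well above background. At P3, GRIA1 was at -3.09 on the slide 1 array and at -7.41 and -6.23 on the other ACM arrays, with DMEM between -5.86 and -5.54, and the difference was 0.12 (SE 0.82, limma adjusted p 0.976). C1QC, a C1q chain, was called higher at P1 with a bound of at least 1.02-fold, since no P1 DMEM array (0) measured it. GRIA2, another AMPA subunit, was the 1 gene of the list called at P3, where 1.73% of all genes were called. It was lower in ACM (limma adjusted p 0.662), but no P3 ACM array (0) was well above background and no bound above 1 could be given. GRIA2 passed the filter only through P3 DMEM, where it had to be high, so this call is no test of it.

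Among the binding partners and C1q-type relatives of cerebellins, 9 of 11 genes were kept. At P1, 2 were called higher and 0 lower, where 13.5% and 0.095% of all genes were. The median was 0.65 against 0.15 over all genes (-0.11 after quantile normalization and 0.63 with slide as a term). At P3, 0 were called, where 1.73% of all genes were. ADGRB3, the adhesion receptor for C1q-like proteins, was higher in P1 ACM with a bound of at least 1.72-fold (limma adjusted p 0.103) and its ligand C1QL3 was called without a bound above 1. In P1 DMEM no array (0) measured either well above background. Both genes, and C1QC, passed the filter only through P1 ACM, where they had to be high.

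Other synapse organisers had 25 of 31 genes kept and a median of 0.42 at P1, against 0.15 over all genes. At P1, 2 were called higher and 0 lower, where 13.5% and 0.095% of all genes were. The called genes were LGI2, a secreted ligand of ADAM22-type receptors, at 2.11 (SE 0.63), and IGSF21, an adhesion protein of inhibitory synapses, at 1.20 (SE 0.42). Of the organisers that astrocytes secrete, 8 of 8 genes were kept, with a list median of 0.11. At P1, 1 of them, SPARCL1, was called higher at 1.82 (SE 0.54), where 13.5% of all genes were. Ionotropic glutamate receptors of the kainate and NMDA families had 11 of 12 genes kept, 5 called higher at P1, where 13.5% of all genes were, and a median of 0.80, which was 0.15 after quantile normalization and -0.35 with slide as a term. The 4 largest were the NMDA subunits GRIN2B at 2.20 (SE 0.61) and GRIN3A at 1.73 (SE 0.67), and the kainate subunits GRIK2 at 1.50 (SE 0.44) and GRIK4 at 1.42 (SE 0.40). For LGI2, SPARCL1, GRIN2B, GRIN3A and GRIK4, 1 of the 3 P1 DMEM arrays was well above background, and GRIN2B and GRIK4 passed the filter only through P1 ACM. In limma the adjusted p of these 7 genes was 0.103 to 0.152. At P3, 0 genes of these 3 lists were called, where 1.73% of all genes were.

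The test of whether the ACM difference itself differed between passages called 7 genes of the lists, all with a lower difference of ACM minus DMEM at P3 and none (0) with a higher one, where 6.83% and 0.0435% of all genes were called so, with a smallest adjusted p of 0.626 in limma. They were GRIA2, which went from 0.48 at P1 to -1.07 at P3, C1QC, SLITRK4, GRIK2, GRIK4, GRIN1 and GRIN3A. Of these, C1QC and GRIK4 passed the filter only through P1 ACM and GRIA2 only through P3 DMEM. GRIN1 and GRIN3A passed through P1 ACM and P3 DMEM alone. A high level in either group lowers this contrast, so the calls of these genes are no test of it. GRIK2, well above background on all 12 arrays, was at -0.43, -0.68 and -0.89 in P1 ACM and at -0.56 on P3 ACM replicate 1, while the other arrays ran from -2.82 to -1.64. The slide 1 arrays were again the high ones. The number of list genes called higher at P1 was 12 of 64, where 13.5% of all genes were called higher. It was 5 after quantile normalization and 1 with slide as a term. With that term, GRIA1 (-1.13), C1QC (-0.49), ADGRB3 (-0.25), C1QL3 (-0.20), LGI2 (-0.15), GRIN2B (-0.35), GRIN3A (-0.44) and GRIK2 (-0.39) had P1 differences below 0.

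**Figure D5:**
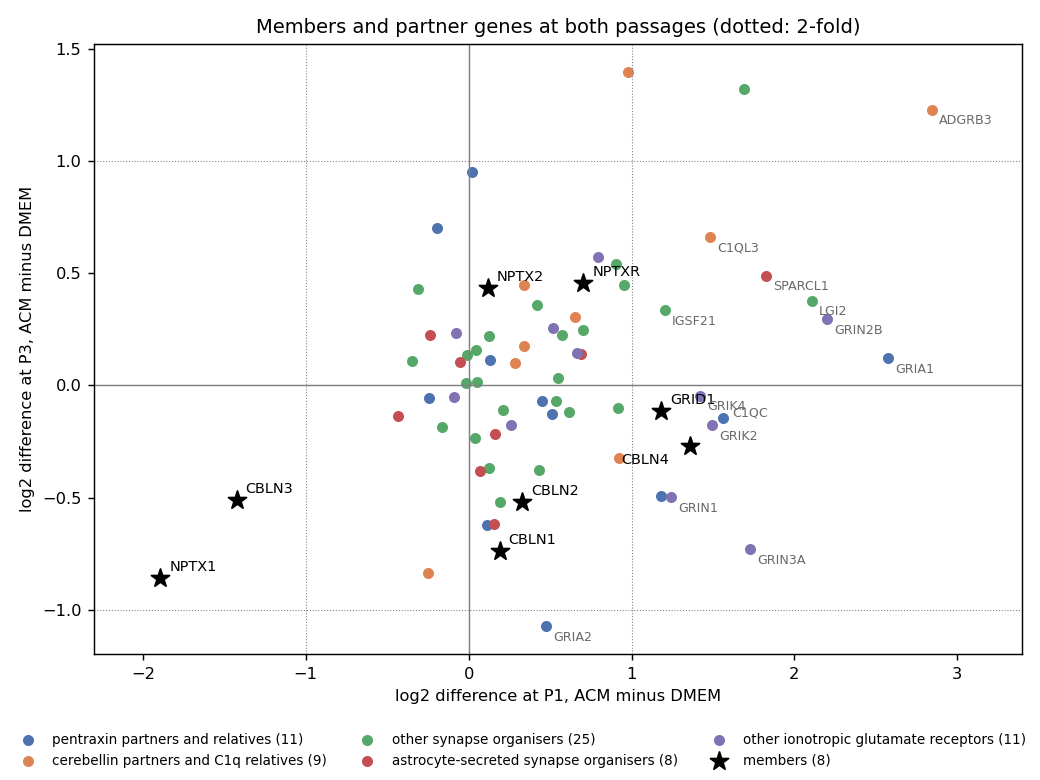
Log2 difference of ACM minus DMEM at P1 (horizontal) and at P3 (vertical) for the 8 members (stars) and the kept genes of 5 lists of partner and related genes (points), with dotted lines at 2-fold and labels for the called list genes. Most points lie right of 0 at P1, and GRIA2 alone among the called list genes is below -1 at P3.

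The genes whose levels over the 12 arrays were most like those of NPTX1, out of 15572 with a probe well above background on every array, were CLIC1 (Pearson r 0.94), RP2 (0.90), ANKEF1 (0.89), RTN4R (0.88) and MACF1 (0.87). Without P1 ACM replicate 1 they were 0.78 to 0.90. For CBLN3 they were PAFAH2 (0.96), FRMD5 (0.89), HMGCS1 (0.86), ARHGEF18 (0.85) and CYP51A1 (0.85), and without P1 DMEM replicate 1 PAFAH2 was at 0.89 and CYP51A1 at 0.50. These correlations describe 12 arrays that share media and slides.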

How the data were processed

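RNA from 12 Daoy cultures was read on 1-colour Agilent arrays. The authors deposited scanner output from Agilent Feature Extraction 11.0.1.1 (named in the submitters' processing notes), whose background-corrected spot intensity is not normalized between arrays. A second file deposited by the authors gives log2 values for 30569 probes, with column medians of 9.02 and a normalization not given in the sources used here. Here 1377 control spots were left out. Outlier spots were left out too, unless every spot of a probe was an outlier. Such probes, 1056 to 1812 on an array, kept their spots, and 33128 of the 34127 probes had a single spot. Spots of a probe were averaged, log2 of the intensity was centred on the 75th percentile of each array, and 31078 of 34127 probes were kept. RefSeq (GRCh38.p14, for names) gave 25771 probes (75.5%) a symbol, and a gene was counted through its brightest kept probe. Accessions without a symbol were counted as genes of their own, so the shares over 25275 genes include them. limma 3.58.1 in R 4.3.3 fitted all 12 arrays with 4 group means, as two-sided tests, with p adjusted by Benjamini-Hochberg over kept probes and 8 residual degrees of freedom before moderation, and 3 arrays a group limit the precision. The fit was run on simulated levels with independent noise, a spread capped at the median and no slide effect. That run does not cover the slide layout or probes of wider spread. The members, lists and tests were chosen with earlier results of these data known. Named genes were all members, the up to 4 largest called genes of each list at each passage, and the 5 genes most correlated with NPTX1 and with CBLN3, and other genes were named after their values were seen. Other genes of these families were not analysed here, and 1 gene of the partner lists is not reported. Alternatives were quantile normalization, normexp (offset 50, on the median spot signal), the authors' table, other probe filters and probe rules, 6 arrays only, the methods' t-test, trend and robust options of eBayes, replicate and slide blocks, and each array left out. Deviations from group means correlated between arrays with the same replicate number by 0.43, 0.18 and 0.27 at P1, so the numbers were taken to pair those arrays, and by 0.23, -0.19 and 0.06 at P3. Figures used matplotlib 3.10.9.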

Additional observations from a re-analysis of the deposited data

How the results depend on the processing

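With 3 arrays a group, NPTX1 and the GRID1 probes near background have the least certain values. The count of members called at P1 (2 higher, 2 lower) depended on the treatment. It was 0 higher and 2 lower after quantile normalization, 0 and 1 after normexp or with only probes well above background on all 12 arrays, 2 and 0 with 6 arrays or the methods' t-test, 0 and 0 with slide as a fixed or random block, and 1 and 0 under the labels of the authors' table. With 1 array left out it ran from 1 to 2 higher and from 0 to 2 lower, where leaving out P1 ACM replicate 1 gave 0 lower and leaving out P1 DMEM replicate 1 gave 1 higher and 1 lower, and leaving out P1 ACM replicate 2 or 3, P1 DMEM replicate 2 or 3 or P3 DMEM replicate 3 gave 1 lower. Leaving out both replicates 1 of P1, chosen after seeing the data, gave 1 higher and 0 lower. With the replicate number as a block, 2 members were called higher and 1 lower at P1, and 0 and 0 at P3, so the pairing ended a single call. At P3 the count of members stayed 0 except under the labels of the authors' table, where 2 were higher (NPTX1 at 1.85 and CBLN3 at 1.92), and without P3 ACM replicate 3, where the leave-one-out range of 0 to 2 lower has its upper end. CBLN4, the 1 member called lower in ACM at P3 than at P1, was not called (0) after quantile normalization, normexp, the strict filter, either slide block or the authors' table (0.29), and the range with 1 array left out was 0 (without P3 ACM replicate 2) to 2 (without P3 ACM replicate 1).

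Members that changed direction under the authors' table were NPTX1 (1.17 at P1, 1.85 at P3), CBLN3 (1.58 and 1.92), GRID1 (-0.0672 and 0.028), CBLN4 and NPTXR at P1 (-0.21 and -0.0116), and, at P3, NPTX2 (-0.0101), NPTXR (-0.61), CBLN1 (0.61) and CBLN2 (0.55). With slide as a block CBLN2 (0.26) and CBLN4 (0.17) turned at P3 and GRID1 (-0.0225), NPTXR (-0.22) and CBLN1 (-0.026) at P1, with slide as a random block CBLN4 at P3 (0.0103), and with the mean over the probes GRID1 at P3 (0.18). At P1, CBLN1 and CBLN2 turned after quantile normalization (-0.59 and -0.13) and normexp (-0.12 and -0.11), and with 1 array left out NPTX2 ran from -0.28 to 0.39, CBLN1 from -0.25 to 0.52 and CBLN2 from -0.16 to 0.58. NPTX2 at P1 was -0.0113 without both replicates 1 of P1. Leaving out P3 ACM replicate 2 gave 0.0058 for CBLN4 and 0.057 for GRID1 at P3, and leaving out replicate 3 gave 0.14 for GRID1, within leave-one-out ranges of -0.63 to 0.0058 and -0.54 to 0.14. The cause was not tested.

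List genes called higher at P1 (12) were 5 after quantile normalization, 2 after normexp, with the strict filter or with slide as a random block, 1 under the authors' table, 1 with slide as a block (2 lower), 9 to 15 with 1 array left out and 5 without both replicates 1 of P1. At P3 (0 higher, 1 lower) they were 1 and 4 under the authors' table, 0 lower after quantile normalization, normexp, the mean over the probes, the strict filter (1 higher), trend and robust (1 higher), slide as a block (2 higher) or as a random block (1 higher), 2 higher with no filter, 1 higher with 6 arrays, with the replicate block or without both replicates 1 of P1, and 0 to 3 in each direction with 1 array left out. The 7 list genes with a lower difference at P3 were 1 after quantile normalization, normexp, the strict filter, either slide block and without both replicates 1 of P1, 2 under the authors' table, and 1 to 17 with 1 array left out, where leaving out P3 ACM replicate 1 gave 17, P1 DMEM replicate 3 gave 11, P1 ACM replicate 2, P1 DMEM replicate 1 or P3 DMEM replicate 2 gave 4, and P3 ACM replicate 2 gave 1, while 1 was higher with no filter and 0 to 1 with 1 array left out. Under the authors' table GRIA1 (-0.61), C1QL3 (-0.41), LGI2 (-0.46), IGSF21 (-0.56), SPARCL1 (-0.44), GRIN2B (-0.44), GRIN3A (-1.43) and GRIK2 (-0.94) turned at P1. With slide as a block GRIA1 (-1.13), C1QC (-0.49), ADGRB3 (-0.25), C1QL3 (-0.20), LGI2 (-0.15), GRIN2B (-0.35), GRIN3A (-0.44) and GRIK2 (-0.39) did at P1 and GRIA2 (0.10) at P3, and GRIA2 was 0.60 with the mean over the probes. With only probes well above background on all 12 arrays NPTX1, CBLN1, CBLN4 and GRID1 have no value, and the difference between passages was not run with 6 arrays or the methods' t-test.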

Other observations

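Among the marker genes, which belong to no comparison of the synapse organisers and were named after their values were seen, CALB1 and AQP4 were called lower in ACM at P3, and AQP4 at P1 too. Other markers went the other way, with RBFOX3 (2.93), S100B (2.18), ALDH1L1 (1.65), ELAVL4 (1.25) and PVALB (1.18) called higher at P1 and, at P3, not called at differences of 0.021, 0.026, 0.52, 0.41 and 0.71. CALB1, the calcium-binding protein that marks Purkinje cells, was at -3.41, -4.19 and -3.31 in P3 ACM and at -2.05, -1.24 and -2.33 in P3 DMEM. The groups did not overlap and the difference was -1.76 (SE 0.42, limma adjusted p 0.616). At P1 it was 0.44 (SE 0.42, limma adjusted p 0.629), with overlapping groups. The means of CALB1 were -3.20 in P1 ACM, -3.64 in P1 DMEM, -3.64 in P3 ACM and -1.87 in P3 DMEM. P3 DMEM, all on slide 3, was thus the group that stood apart. It was called higher than P1 DMEM by 1.76 (SE 0.42, limma adjusted p 0.572), and those groups did not overlap either. AQP4, the water channel of astrocyte end feet, was at -5.59, -5.48 and -4.85 in P3 ACM and at -3.37, -2.46 and -4.29 in P3 DMEM, a difference of -1.94 (SE 0.60, limma adjusted p 0.644), and at P1 its groups overlapped with a difference of -1.37 (SE 0.60, limma adjusted p 0.198). Both probes were well above background on all 12 arrays. Their values under other treatments were not computed.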
